A study of Mus musculus with 9 samples.

Results

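Tendon and cartilage share a small set of regulators and matrix genes, and 10 of them were followed here in the left ventricle under pressure overload. They are the transcription factor genes Scx, Mkx and Sox9, the membrane protein genes Tnmd, Cnmd and Chodl, and the matrix genes Acan, Hapln1, Prg4 and Chad. The members were chosen by name, with earlier differences between the same arrays known, so their differences are given as a description and without p-values. The array measured all 10 with 16 probe sets, of 18193 genes and 45037 probe sets in all. A probe set is a group of short probes against 1 transcript, and here 7 of the genes had 1 probe set and 3 had several.

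The mice were male C57BL/6 animals with no genetic change given in the labels. Transaortic constriction (TAC), a surgical narrowing of the aorta that raises the pressure the left ventricle works against and was used to bring on heart failure, was done in 1 group (4 arrays), and sham surgery in the other (5 arrays). Left ventricular RNA was taken 6 weeks after surgery, with no age stated in the labels. They list 1 sample per array without tying each to its own animal, so errors and p-values describe the spread between these samples. They number no replicates either, and the replicate numbers used here follow the order of the sample records, only name an array and pair none. Values are log2 RMA values, in which background is removed and all arrays share 1 distribution, with a median of 6.57, a lower quartile of 4.94 and an upper quartile of 8.72.

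In development, Scx, a basic helix-loop-helix factor, marks tendon progenitors, Mkx, a homeobox factor, acts in tendon maturation, and Sox9 directs cartilage formation. Tnmd and Cnmd encode related membrane proteins of tendon and cartilage that share a BRICHOS domain. Acan encodes aggrecan, the large chondroitin sulfate proteoglycan that binds hyaluronan with the help of the link protein encoded by Hapln1. In the heart, valves and their tendinous cords use several of these genes, and Scx is also known from cardiac fibroblasts.

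The program did not move as 1 block. At the brightest probe set of each gene, every TAC array lay above every sham array for Tnmd, Chodl, Prg4, Scx, Acan and Sox9, and every TAC array lay below every sham array for Cnmd. The groups overlapped for Mkx, Hapln1 and Chad. Of the 16 probe sets, 6 were separated upward and 1 downward, where 10.2% and 9.67% of all probe sets on the array were. In limma, a linear model with shared variance estimates, at an adjusted p below 0.05 over all probe sets, 7 of the 16 were past the threshold upward and 1 downward, against 8.87% and 8.86% of all probe sets. Because the members were chosen with this contrast known, nothing is read from these counts. The median difference over the 10 genes at their brightest probe sets was 0.73, beside 0.00 over all genes. For the same reason, nothing is read from this median.

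**Figure D1:**
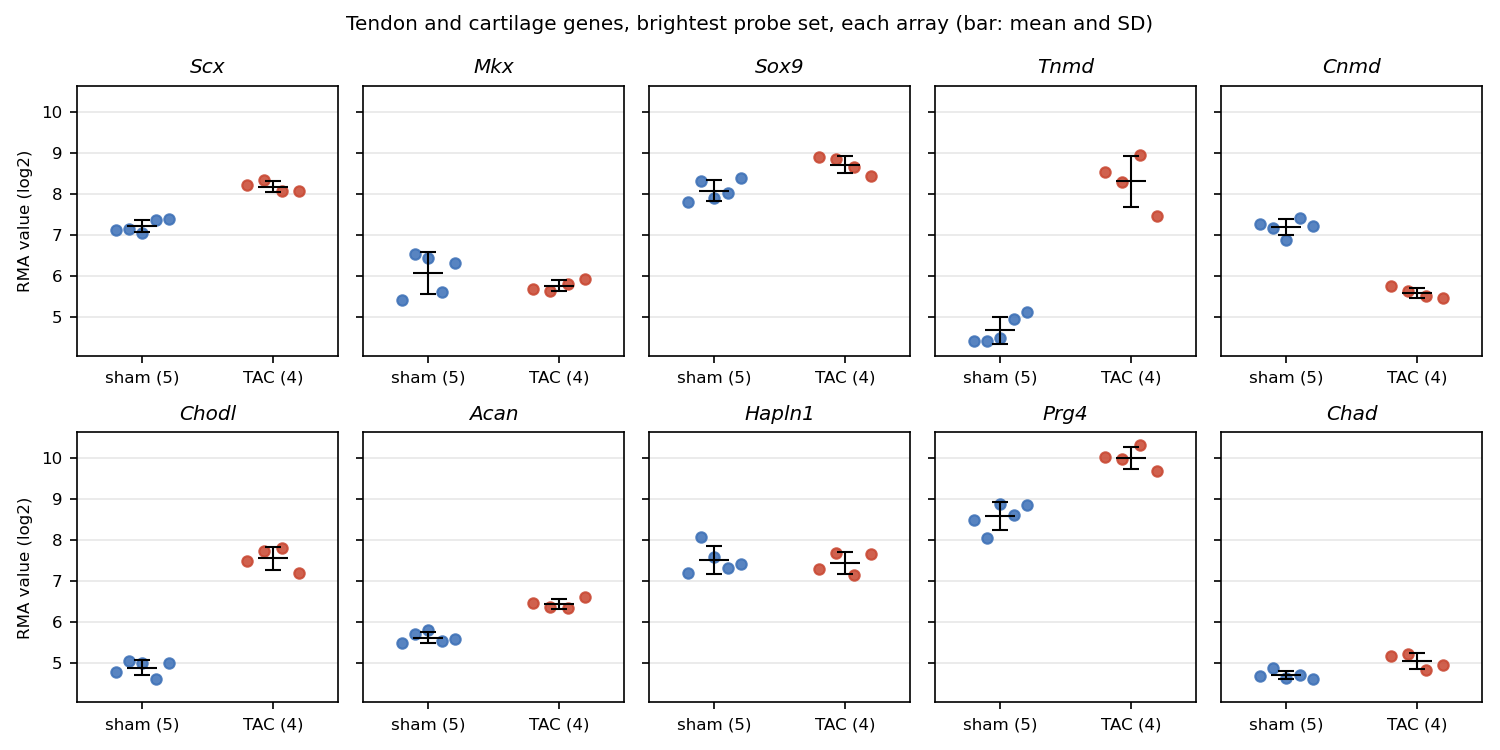
Log2 RMA value of each member at its brightest probe set on each array, with sham arrays (5) in blue, TAC arrays (4) in red and bars for the group mean and SD. Tnmd and Chodl show the widest upward separation, Cnmd is lower on all 4 TAC arrays, and the TAC values of Mkx lie within the sham range.

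Among the transcription factors, Scx was higher in TAC. Its brighter probe set read 7.12, 7.15, 7.05, 7.35 and 7.39 on sham replicates 1 to 5 and 8.21, 8.33, 8.07 and 8.07 on TAC replicates 1 to 4. The groups did not overlap and were 0.68 apart at their nearest values, a gap wider than the range of either group. The sham mean was 7.21 ± 0.15 (SD, n = 5), and the TAC mean was 8.17 ± 0.13 (SD, n = 4). The difference, TAC minus sham on the log2 scale, was 0.96 with a standard error (SE) of 0.10 from the fit across all probe sets, a ratio of 1.94. A second probe set of Scx, of a type that can match several transcripts, was dim, with means of 3.37 and 3.66. It differed by 0.29 (SE 0.12) and 2 of its TAC arrays lay within the sham range.

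Mkx was not separated. Its probe set read 5.40, 6.52, 6.44, 5.61 and 6.31 on the sham arrays and 5.69, 5.63, 5.80 and 5.92 on the TAC arrays. All 4 TAC values lay within the sham range, which was the widest of the 10 genes, with sham replicates 1 and 4 low and the other three high. The difference was -0.30 (SE 0.22), with a 95% interval of -0.79 to 0.20. It was -0.46 without sham replicate 1 and -0.18 without sham replicate 2.

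Sox9 was higher in TAC at the brightest of its 3 probe sets, by a narrow margin. That probe set read 7.80, 8.30, 7.89, 8.01 and 8.38 in sham and 8.88, 8.85, 8.66 and 8.43 in TAC. The lowest TAC value lay 0.05 above the highest sham value. The difference was 0.63 (SE 0.14), a ratio of 1.55. The other two probe sets averaged 5.04 and 3.30 in sham and differed by 0.18 (SE 0.17) and 0.22 (SE 0.10), with overlapping groups. When all probe sets of a gene were averaged, the differences were 0.34 (SE 0.10) for Sox9 and 0.63 (SE 0.09) for Scx, and in both genes the TAC arrays still lay above the sham arrays.

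Tnmd, which encodes tenomodulin, a membrane glycoprotein used as a marker of mature tendon cells, had the largest difference of the 10 genes. The sham arrays read 4.42, 4.41, 4.49, 4.95 and 5.11, around the lower quartile of the table, and the TAC arrays read 8.52, 8.28, 8.95 and 7.46. The nearest values of the 2 groups were 2.35 apart. The means were 4.67 ± 0.33 (SD, n = 5) and 8.30 ± 0.63 (SD, n = 4), and the difference was 3.63 (SE 0.27), a ratio of 12.4. The TAC arrays spread over 1.49, more than for any other member, with TAC replicate 4 lowest. Leaving out each array in turn gave differences from 3.41 to 3.91.

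Cnmd, which encodes chondromodulin, a cartilage and valve protein known to inhibit vessel growth and the closest relative of tenomodulin, went the opposite way. It read 7.25, 7.17, 6.88, 7.41 and 7.22 in sham and 5.74, 5.64, 5.50 and 5.46 in TAC. All 4 TAC values were lower than all sham values, by at least 1.14. The means were 7.18 ± 0.19 (SD, n = 5) and 5.58 ± 0.13 (SD, n = 4), and the difference was -1.60 (SE 0.11), a 3.03-fold lower value. Cnmd was the only member with a downward separation at any of the 16 probe sets.

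Chodl, which encodes chondrolectin, a membrane protein with a C-type lectin domain, had the second largest difference. It read 4.80, 5.04, 5.00, 4.62 and 5.00 in sham and 7.49, 7.73, 7.80 and 7.20 in TAC. The groups were 2.16 apart at their nearest values, while neither spread over more than 0.60. The difference was 2.66 (SE 0.13), a ratio of 6.33.

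The RefSeq promoter table (GRCm38.p6) held 6 of the 10 genes: Tnmd, Cnmd, Chodl, Acan, Hapln1 and Chad. The 250 bases before the start are shown for the 2 genes with the largest increases and the 1 with a decrease, because these 3 carry the widest separations in the set. Capitals mark matches on either strand to CANNTG, the E-box letters that helix-loop-helix factors such as scleraxis can bind, or to AACAAT, a core that SOX factors can bind.

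Tnmd (chrX:133850758-133851007, plus strand): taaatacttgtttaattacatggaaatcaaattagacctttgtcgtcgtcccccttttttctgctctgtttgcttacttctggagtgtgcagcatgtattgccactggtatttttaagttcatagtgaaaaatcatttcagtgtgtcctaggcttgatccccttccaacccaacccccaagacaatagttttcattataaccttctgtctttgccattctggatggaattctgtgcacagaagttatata

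Chodl (chr16:78930698-78930947, plus strand): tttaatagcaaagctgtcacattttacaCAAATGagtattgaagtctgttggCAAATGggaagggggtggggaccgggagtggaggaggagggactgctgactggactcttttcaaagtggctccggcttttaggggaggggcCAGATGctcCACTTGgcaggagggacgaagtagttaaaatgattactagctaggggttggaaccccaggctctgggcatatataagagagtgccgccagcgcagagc

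Cnmd (chr14:79662184-79662433, minus strand): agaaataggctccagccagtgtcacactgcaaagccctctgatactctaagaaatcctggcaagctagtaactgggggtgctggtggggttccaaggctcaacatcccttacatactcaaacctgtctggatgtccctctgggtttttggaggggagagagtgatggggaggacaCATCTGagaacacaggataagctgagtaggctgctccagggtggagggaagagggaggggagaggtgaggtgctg

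The Chodl window held 4 matches to CANNTG, the nearest to the start beginning at -98, and the Cnmd window held 1, at -75. The Tnmd window held 0, which says only that these letters are not in these 250 bases. The windows of Acan and Chad held 1 match each, at -179 and -49, and that of Hapln1 held 0. Of all 32851 windows of the same length, with a gene counted at each of its starts, 66.2% held at least 1 CANNTG. The narrower E-box CAGATG, a special case of CANNTG, was in the Chodl window and, on the other strand, in the Cnmd window, and in 14.4% of all windows. AACAAT was in none of the 6 windows and in 9.42% of all windows. The matches are a description of the letters and not a measure of binding.

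**Figure D2:**
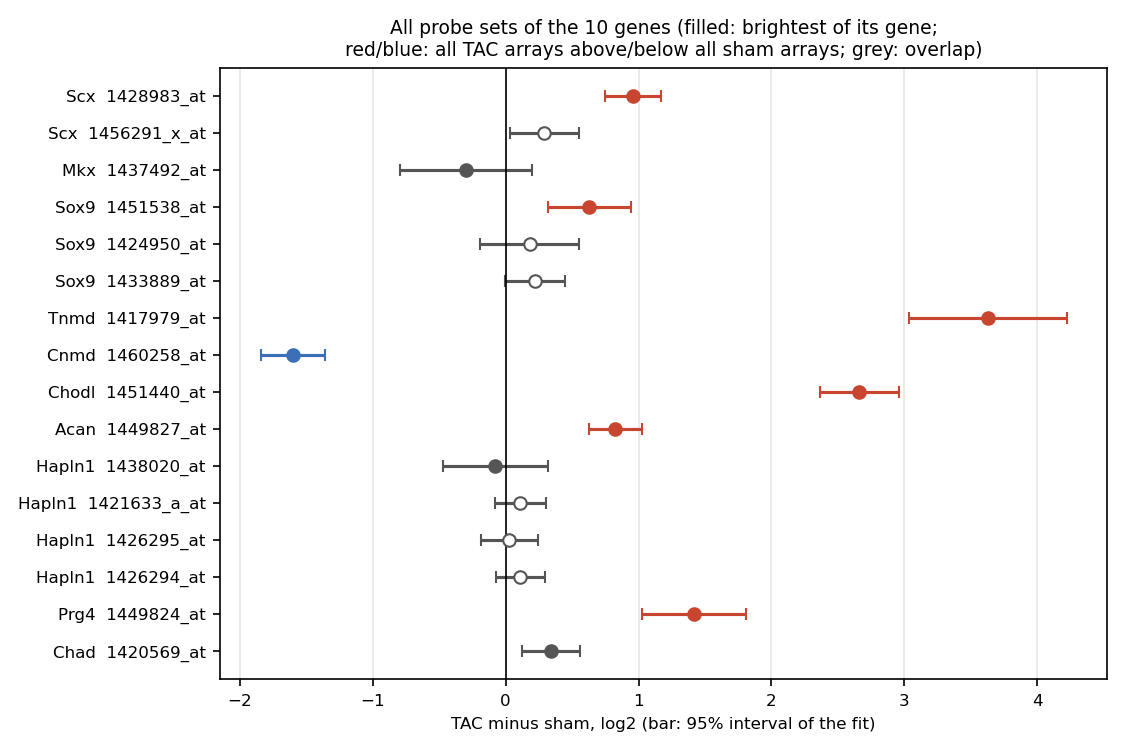
Difference TAC minus sham (log2) for all 16 probe sets with the 95% interval of the fit, filled symbols for the brightest probe set of a gene and open symbols for dimmer ones. Red and blue mark probe sets whose TAC arrays all lay above or all lay below the sham arrays, and the dimmer probe sets of Scx, Sox9 and Hapln1 all lie between 0 and 0.30.

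Of the matrix genes, Prg4, which encodes lubricin, a lubricating glycoprotein of joint and tendon surfaces, differed most. It read 8.50, 8.07, 8.89, 8.62 and 8.86 in sham and 10.03, 9.97, 10.33 and 9.69 in TAC. The lowest TAC value was 0.80 above the highest sham value. The difference was 1.42 (SE 0.18), a ratio of 2.67, and leaving out sham replicate 2, the lowest sham array, gave 1.29.

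Aggrecan and its link protein did not differ alike. Acan read 5.49, 5.71, 5.81, 5.55 and 5.58 in sham and 6.47, 6.36, 6.36 and 6.62 in TAC. The groups were 0.55 apart at their nearest values, and the difference was 0.82 (SE 0.09), a ratio of 1.77. The brightest Hapln1 probe set read 7.20, 8.07, 7.59, 7.32 and 7.42 in sham and 7.31, 7.68, 7.14 and 7.65 in TAC, so that 3 of the 4 TAC values lay within the sham range. Its difference was -0.08 (SE 0.18), with a 95% interval of -0.47 to 0.32. The other three Hapln1 probe sets differed by 0.03 to 0.11, and none of the 4 was separated. The mean of the 4 differed by 0.04 (SE 0.07).

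Chad, which encodes chondroadherin, a leucine-rich cartilage matrix protein that binds cells through integrins, differed least of the genes past the threshold. It was dim, at 4.70, 4.89, 4.64, 4.71 and 4.62 in sham and 5.18, 5.23, 4.84 and 4.96 in TAC. TAC replicate 3 lay within the sham range. The difference was 0.34 (SE 0.10), a ratio of 1.27. It was past the threshold on leaving out any 1 of 3 arrays and not past it on leaving out any 1 of the other six, sham replicates 1, 3, 4 and 5 and TAC replicates 1 and 2, so that 6 in place of 7 probe sets were then past it upward.

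TAC replicate 4 had the lowest TAC value in 5 of the 6 genes separated upward, Tnmd, Chodl, Prg4, Scx and Sox9, and the highest in the sixth, Acan. In Scx it lay level with TAC replicate 3, at 8.07. TAC replicate 3 was highest for Tnmd, Chodl and Prg4. On the second principal component of all probe sets, sham replicate 2 scored -43.8, while the remaining sham arrays scored 1.80 to 44.3. Without it, 7 of the 16 probe sets were past the threshold upward and 1 downward, as with all arrays.

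The wider tendon and cartilage genes, none of them members, were taken as lists of related genes and tested with the limma fit over 18193 genes, 1 probe set each (adjusted p by Benjamini-Hochberg). With a threshold of 0.05 on the adjusted p, 12.8% of all genes were called higher and 12.3% were called lower, so that 51.1% of the calls were upward, against 40.5% after subtracting the array median from every value. The lists were drawn up with earlier results of these arrays known, so their directions are not independent evidence. In RNA from whole tissue, a change in the number of cells of a type and a change in RNA per cell cannot be told apart.

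Of 17 measured tendon and ligament genes, 14 rose, and the list median was 2.03. Comp, a cartilage and tendon matrix protein, read 6.00 to 8.17 in sham and 11.10 to 11.65 in TAC and rose by 4.53 (SE 0.36, adjusted p = 1.84e-05). The thrombospondin gene Thbs4 rose by 3.64 (SE 0.27, adjusted p = 1.31e-05), and the type V collagen genes Col5a2 and Col5a1, whose product sets fibril width, by 2.03 (SE 0.16) and 0.97 (SE 0.08). All 4 TAC arrays lay above all sham arrays in each of these 4 genes. The 3 genes of the list that did not pass were Kera (-0.15, SE 0.10, adjusted p = 0.349), Egr1 (-0.29, SE 0.15, adjusted p = 0.193) and Six2 (0.12, SE 0.07, adjusted p = 0.246), which were chosen here to complete the count after their values were seen.

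The listed cartilage collagens and matrix proteins mostly differed little between the groups. Of 17 measured, 2 rose and 1 fell, and the list median was 0.00. Every TAC array lay above every sham array in 3 of them and below in 1. Only 1 of the 17 was above the median of all genes, and dim values can understate differences. Comp, itself a cartilage matrix gene, and Cilp were listed with the tendon genes and rose by 4.53 and 4.20. The members Acan, Prg4 and Chad were in neither list. How tendon and cartilage genes compare therefore depends on this placement. Col9a2, a chain of cartilage type IX collagen, rose by 0.37 (SE 0.11, adjusted p = 0.0266) from a mean of 4.25, below the lower quartile of the table, and Cilp2 rose by 0.30 (SE 0.08, adjusted p = 0.0226). Both calls ended when arrays were centred on the median of their gene values, or without sham replicate 3 or TAC replicate 3. Col9a2 also lost its call without sham replicate 1 or 5 or TAC replicate 4. Chadl, the relative of chondroadherin, fell by 0.29 (SE 0.07, adjusted p = 0.00837). Col2a1, the principal collagen of cartilage, named here after its values were seen, read 4.82 to 5.20 in sham and 5.12 to 5.19 in TAC and differed by 0.08 (SE 0.08, adjusted p = 0.539).

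**Figure D3:**
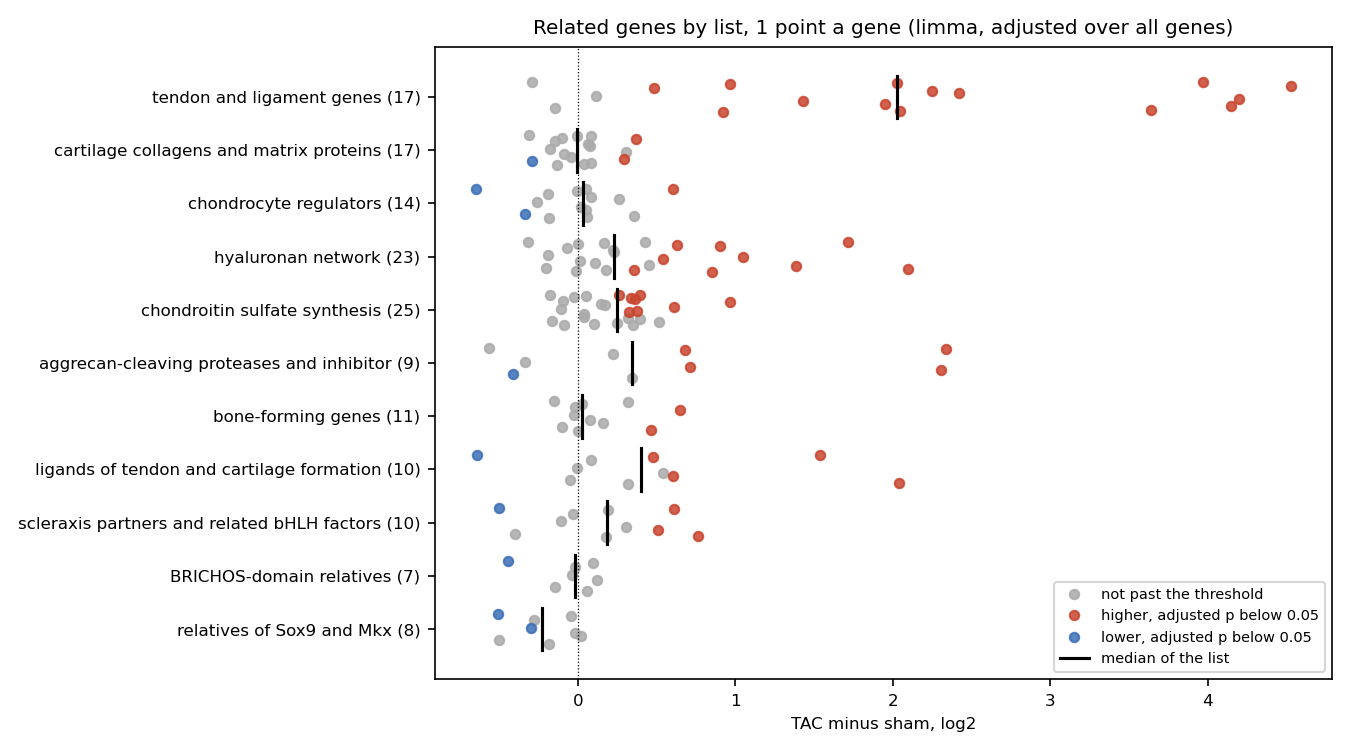
Difference TAC minus sham (log2) of each related gene, 1 point a gene, by list with the number measured, coloured by the limma call, with a line at each list's median. The tendon and ligament list has its median at 2.03 with 14 of 17 genes called higher, and the cartilage list has its median at 0.00 with 2 called higher and 1 lower.

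Regulators of chondrocytes went in both directions, with 1 of 14 higher and 2 lower and a median of 0.03. Sox6, a partner of Sox9 in cartilage, fell by 0.65 (SE 0.10, adjusted p = 0.000987) at its brightest probe set, while its 4 probe sets ran from -0.68 to 0.34. Wwp2, a ubiquitin ligase gene whose product interacts with SOX9, rose by 0.60 (SE 0.10, adjusted p = 0.00117), with its 6 probe sets from -0.41 to 0.60. The parathyroid hormone receptor gene Pth1r fell by 0.34 (SE 0.10, adjusted p = 0.0305), and 5 of the 9 arrays could each end that call by their absence (largest adjusted p = 0.0943, with TAC replicate 3 removed). Among 8 relatives of Sox9 and Mkx, the Iroquois genes Irx1 and Irx3 fell by 0.51 (SE 0.13, adjusted p = 0.0140) and 0.30 (SE 0.08, adjusted p = 0.0219), the latter not past the threshold without sham replicate 4 or TAC replicate 2 or 3. The other six did not pass.

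Of 10 measured helix-loop-helix genes related to Scx, including its E-protein partners, 3 rose and 1 fell, with a median of 0.19. Twist1 rose by 0.76 (SE 0.11, adjusted p = 0.000635), Twist2 by 0.61 (SE 0.17, adjusted p = 0.0217) and Id4 by 0.51 (SE 0.12, adjusted p = 0.0108). Id1, which encodes an inhibitor of helix-loop-helix factors, fell by 0.50 (SE 0.12, adjusted p = 0.0125). The 3 probe sets of Id4 ran from 0.06 to 0.51. The Twist2 call was lost without TAC replicate 1, 2 or 3. Of 7 relatives of Tnmd and Cnmd that carry the BRICHOS domain, Gkn3 fell by 0.44 (SE 0.10, adjusted p = 0.0101) and the rest did not pass.

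Among ligands that act in tendon and cartilage formation, 4 of 10 rose and 1 fell, with a median of 0.40. Tgfb2, a ligand upstream of Scx in tendon progenitors, read 9.07 to 9.14 in sham and 10.95 to 11.35 in TAC, and rose by 2.04 (SE 0.08, adjusted p = 5.91e-07). Tgfb3 rose by 1.54 (SE 0.15, adjusted p = 6.04e-05), Bmp4 by 0.61 (SE 0.13, adjusted p = 0.00714) and Inhba by 0.48 (SE 0.10, adjusted p = 0.00677), while the other probe set of Inhba differed by 0.03. The ligand that fell was Bmp7 (-0.64, SE 0.16, adjusted p = 0.0160), named to complete the count. With TAC replicate 1 removed, Bmp7 no longer passed (adjusted p = 0.0516), and 1 TAC array lay within its sham range. The 3 probe sets of Bmp7 ran from -0.64 to 0.10.

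The hyaluronan network, in which aggrecan and the link protein act, had 9 of 23 genes higher, with a median of 0.23. Vcan, which encodes versican, the aggrecan relative of soft tissue, read 8.61 to 9.52 in sham and 10.97 to 11.43 in TAC and rose by 2.10 (SE 0.17, adjusted p = 1.91e-05), although its 8 probe sets ran from -0.15 to 2.10. The genes of hyaluronan-bound proteins Itih5 and Itih2 rose by 1.72 (SE 0.13) and 1.39 (SE 0.12), and the hyaluronan receptor gene Cd44 by 1.05 (SE 0.11), with its 4 probe sets from 0.06 to 1.33. Of 25 measured genes listed under chondroitin sulfate synthesis, 8 rose, with a median of 0.25. Dse, an epimerase that turns chondroitin into dermatan sulfate, rose by 0.96 (SE 0.10, adjusted p = 0.000107), B3galt6 by 0.40 (SE 0.07), the sulfotransferase gene Chst12 by 0.38 (SE 0.09) and Csgalnact2 by 0.36 (SE 0.08). The 3 probe sets of B3galt6 ran from 0.15 to 0.40, and their average did not pass (adjusted p = 0.0519 by limma).

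Of 9 genes of aggrecan-cleaving proteases and their inhibitor, 4 rose and 1 fell, with a median of 0.34. Adamts4, an aggrecanase gene, read 6.88 to 7.45 in sham and 8.27 to 10.40 in TAC and rose by 2.34 (SE 0.34, adjusted p = 0.000708), with TAC replicate 4 again lowest. Adamts8 rose by 2.31 (SE 0.13, adjusted p = 2.34e-06) and Mmp3 by 0.68 (SE 0.10, adjusted p = 0.000789), while Adamts5, the other main aggrecanase gene, fell by 0.41 (SE 0.09, adjusted p = 0.00903). Of 11 measured bone-forming genes 2 rose, Omd by 0.65 (SE 0.09, adjusted p = 0.000411) and the alkaline phosphatase gene Alpl by 0.46 (SE 0.08, adjusted p = 0.00172), with a median of 0.03.

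Markers of other cell types were set beside these values. RMA values have no 0, so absence of a marker cannot be read from them. The cardiomyocyte markers averaged 14.38 to 14.43 in sham and 14.32 to 14.34 in TAC, near the highest value of the table, 14.80. So near the top, differences can be hidden, and Myl3 read 14.77 on every array. Tnni3 fell by 0.16 (SE 0.05, adjusted p = 0.0475 by limma), in 1 of 9 fits with 1 array removed, and the other 6 did not pass. The probe sets of Myh6 ran from -0.50 to -0.05 and of Tnnt2 from -1.40 to -0.02. Those of Ryr2 ran from -0.69 to -0.23 and of Myl3 from -0.01 to 0.01. All 8 activated fibroblast markers rose. Fap rose least, by 0.28 (SE 0.08, adjusted p = 0.0235 by limma), and passed in 5 of 9 fits with 1 array removed. The list mean was 7.31 to 8.92 on sham arrays and 10.96 to 11.37 on TAC arrays. TAC replicate 4 was lowest here, as in 5 of the 6 members separated upward. It was also the lowest TAC array in the cardiomyocyte, resting fibroblast, valve and epicardial lists, so this order is not particular to activated fibroblasts. Thbs4, Comp and Cilp are in both this list and the tendon list. The 7 resting fibroblast markers had 2 higher and 2 lower, with means of 10.63 to 10.86 and 10.62 to 10.76. These means hide opposite changes. Pi16 and Col15a1 rose by 1.69 (SE 0.14) and 1.11 (SE 0.11). Scara5 and Dpep1 fell by 2.37 (SE 0.12) and 0.85 (SE 0.08), although the other probe set of Scara5 differed by -0.07. The part of fibroblast number or state in the members' differences was not tested.

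The chondrocyte, valve and epicardial markers moved less than the activated fibroblast markers. Of 7 chondrocyte markers, all of them also in the cartilage list, the dim Col9a2 alone rose. The list mean was 4.56 to 4.96 in sham and 4.71 to 4.86 in TAC. These means lie around the lower quartile of the table, where differences can be understated. Of 6 valve markers Twist1 rose and Wif1 fell, with means of 6.19 to 6.44 and 6.35 to 6.45. Of 8 epicardial and mesothelial markers, 1, Tbx18, rose, a call that held in 2 of 9 fits with 1 array removed (0.39 and 0.05 at its 2 probe sets), and the list mean ran from 5.43 to 6.06 and from 5.53 to 6.46, with the TAC arrays widely spread. Macrophage markers rose in 4 of 5 genes, with list means of 9.68 to 10.11 in sham and 10.37 to 10.59 in TAC. Skeletal muscle markers rose in 3 of 8, with means of 5.36 to 5.65 and 5.74 to 5.94. Smooth muscle markers had 2 of 5 higher and 2 lower, and atrial markers 1 of 4 higher. In the Schwann cell list, which holds Sox10 at its brightest probe set, 1 of 3 fell. In the adipocyte list 1 of 4 fell, and 0 of 4 osteoblast markers passed. The part of these cell types in the members' differences was not tested.

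**Figure D4:**
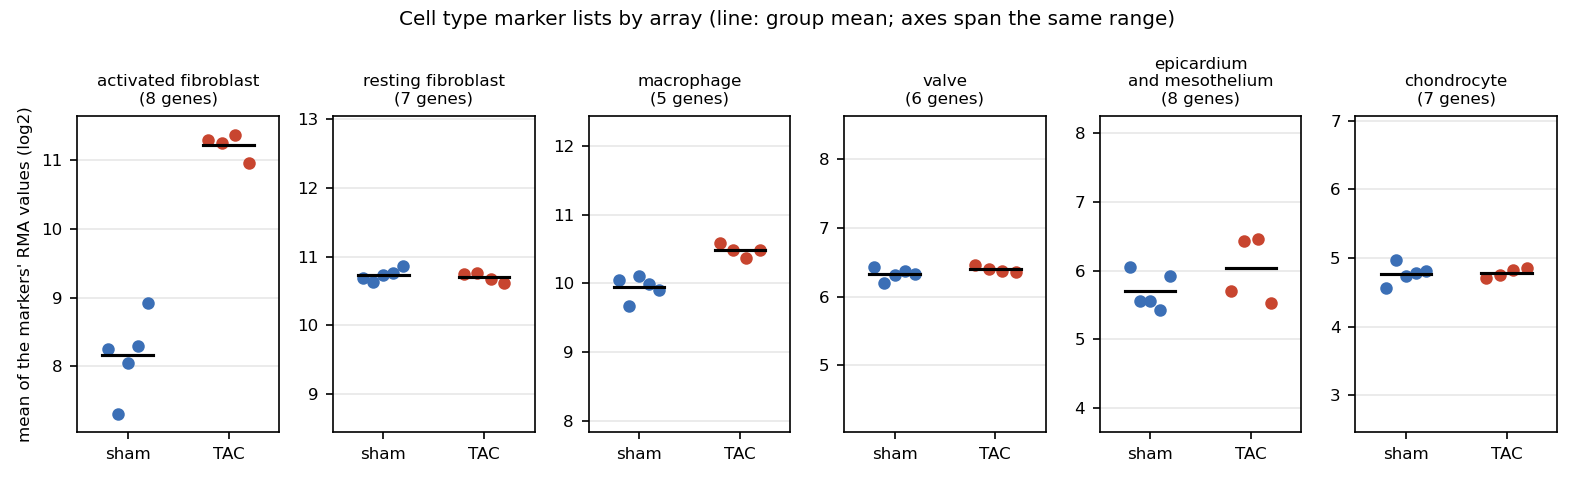
Mean log2 RMA value of each marker list on each array, with sham in blue, TAC in red and a line at the group mean; every axis spans the same range at a different level. Activated fibroblast markers lie at 7.31 to 8.92 in sham and 10.96 to 11.37 in TAC, while the valve and chondrocyte markers of the groups overlap.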

How the data were processed

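The authors deposited log2 values. The submitters' processing notes name RMA and no version of it. RMA removes background, gives all arrays 1 distribution and summarises probes per probe set, so a rise or fall of all RNA cannot be seen, and values near the bottom of the scale understate differences. Which software ran it is not stated in the labels. Of 45101 probe sets, 64 controls were left out. The platform annotation gave 1 symbol to 34945, several to 932 and none to 9160, which are unnamed here. Each gene was read at its brightest probe set, judged by the mean of all 9 arrays. Members were followed at every probe set with 1 symbol equal to the member.

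TAC was set against sham in limma 3.58.1, under R 4.3.3 (lmFit, eBayes, two-sided, no covariate, adjusted over all probe sets or all genes), which was tested on simulated data first. Tables and figures used Python 3.11.15 with pandas 2.3.3 and matplotlib 3.10.9. The members and lists were chosen with earlier results of these data known. Each list's named genes were up to 4 called genes with the smallest p. Listed genes without a probe set of 1 symbol were not analysed here. Precision is set by how few arrays there are. The alternatives were a mean-variance trend, array weights, centring, cyclic loess, a filter on dim features, a stricter threshold, averaged probe sets and leaving out each array. Leaving out probe sets marked x_at or s_at was added after seeing the data.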

Additional observations from a re-analysis of the deposited data

Results flagged for a closer look

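In 102 groups of arrays examined, 32 of members and 70 of named related genes, 2 had an array far from the rest, where chance gives about 1 in 20, and both were of Id1. Sham replicate 3 read 9.48 against 9.86 for the next lowest sham array, and TAC replicate 3 read 9.12 against 9.42 for the next lowest TAC array. Members had no such array.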

How the results depend on the processing

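All 16 member differences kept within 1 SD of their values under cyclic loess, array weights and leaving out each array. Centring over all probe sets could hardly change them, because all arrays share 1 distribution, so it is no check on them. With array weights the second Scx probe set also passed. With only features above the median, 4 member probe sets were tested, of which 3 passed upward. At an adjusted p below 0.01, 2153 probe sets were higher and 1976 lower, and 1356 genes were higher and 1252 lower. Without 1 array, 2588 to 4276 probe sets were lower, the fewest without TAC replicate 3. With centring on the median of the gene values, 40.5% of called genes were higher in place of 51.1%, and the median of all genes was -0.05. The tendon count was 13 with averaged probe sets, 10 of 11 above the median and 14 otherwise. Of the cartilage genes, 0 were higher at 0.01 and 0 with centring on the median of the gene values. Above the median, where 1 was tested, 0 were higher and 0 lower. Leaving out arrays gave 0 to 3 higher (0 without sham replicate 3 or TAC replicate 3) and 1 to 2 lower (2 without sham replicate 1). Of the named related genes, B3galt6 did not pass with averaged probe sets (adjusted p = 0.0519). Beyond what these settings fix themselves, the cause was not tested. No paired analysis was possible because the labels give no replicate numbers; those used here follow record order.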
